A study of Zea mays with 10 samples.

Results

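In maize endosperm RNA, 81 of 28580 gene IDs (0.283%) stood higher in the library numbered replicate 3 than in replicates 1 and 2, in an opaque-2 mutant and in the wild type alike. These replicate-3-high genes were chosen from their measured levels, by a rule on the 6 libraries. The wild-type replicate 3 had to reach 2 RPKM, the replicate 3 of each genotype had to be at least 1.8 times the higher of replicates 1 and 2, and the wild-type mean had to lie under 1000 RPKM. RPKM is by name a read number scaled to gene length and library size. The values are those the authors deposited, and how they were scaled is not stated. The group called o2 was strain B73o2, which carries opaque-2 in B73, and the group called WT was the inbred line B73 itself. All plants were grown in a greenhouse and self-pollinated, and polyadenylated RNA of dissected endosperm was taken 15 days after pollination, with 3 libraries per genotype. The labels name no allele and do not say whether replicates came from separate plants or ears, so the p-values measure the spread between these libraries, which may be technical.

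The endosperm is the storage tissue of the kernel. Its starchy cells fill with starch and with zeins, the seed storage proteins, while the basal transfer layer at its foot takes up sugars and amino acids from the mother plant and the aleurone forms its outer cell layer. The product of opaque-2 (O2), a bZIP transcription factor, acts in starchy endosperm and is known as an activator of many zein genes and of rip1, which encodes a ribosome-inactivating protein. The 6 members with a gene name included genes of defence (rip1 and the chitinase gene chiB) and of the conversion of lipid or organic acids into sugar (icl1 and pck2).

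The replicate-3 ratios follow from the choice and carry no test. The level in replicate 3 was 1.803 to 4.97 times the higher of the other libraries in o2 (median 2.19) and 1.801 to 10.7 times in WT (median 2.26). Among 12356 IDs with at least 2 RPKM in WT replicate 3, 232 (1.88%) met the o2 part of the rule, 566 (4.58%) met the WT part and 108 met both. Of these 108, 27 had a WT mean of 1000 RPKM or more and were left out, among them the gamma zein genes gz16 (GRMZM2G060429) and gz50 (GRMZM2G138689), which the rule leaves out by name with 2 further zein IDs. The members just inside the limit were GRMZM2G107103, GRMZM2G499709 and GRMZM2G039477, whose smaller ratio over both genotypes was 1.801, 1.803 and 1.81. Just outside it lay AC216265.3_FG002, GRMZM5G836353 and GRMZM2G363595, at 1.79, 1.79 and 1.78.

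The o2 gene (GRMZM2G015534) had 0.212, 0.173 and 0.254 RPKM in o2 replicates 1 to 3 and 112, 86.1 and 163 RPKM in WT replicates 1 to 3, low in every library labelled o2. Beyond the member genes, replicate 3 was the highest library of each genotype in summed RPKM. In the share of multiply mapped reads it was highest in WT only. The libraries held 52906484 to 66795114 reads. Multiply mapped reads were 20.8% in o2 replicate 3, against 21.0% and 21.7% in the other o2 libraries, and 38.6% in WT replicate 3, against 32.5% and 26.9% in the other WT libraries. The RPKM summed over all IDs was highest in replicate 3 of both genotypes, at 264780 in o2, against 207907 and 207265 in o2 replicates 1 and 2, and at 2588142 in WT, against 1318538 and 696998 in WT replicates 1 and 2. The library medians were all between 1.56 and 1.60 RPKM.

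Cell type markers moved with replicate number in both genotypes. All 7 tested basal transfer layer markers were lowest in replicate 3 of both genotypes, an order found in 14.5% of 18687 tested genes. Over the whole list of 8 IDs, the summed level was 54.3, 173 and 24.6 RPKM in o2 replicates 1 to 3 and 187, 78.1 and 4.28 RPKM in WT replicates 1 to 3. The cell wall invertase gene mn1 (GRMZM2G119689), needed for sugar import at the kernel base, had 4.84, 6.08 and 2.21 RPKM in the o2 libraries and 13.4, 4.43 and 0.0143 RPKM in the WT libraries. Of 12 tested starchy endosperm marker IDs, 9 were highest in replicate 3 of both genotypes, against 16.6% of tested genes. Of these 9, 3 met both ratios of the rule (gz16, gz50 and the zein gene bz15). The median of replicate 3 over the higher other library was 1.26 in each genotype across the 12 IDs. For bt1, 1 of the 9, it was 1.03 in o2 and 1.01 in WT. The o2 gene, also 1 of the 9, had 0.254 RPKM or less in o2. Over all 12 IDs the summed level was 10042, 12312 and 23316 RPKM in o2 replicates 1 to 3 and 26318, 15083 and 44151 RPKM in WT replicates 1 to 3, most of it from zeins. The 8 aleurone IDs summed to 57.5, 48.1 and 51.2 RPKM in o2 and 54.5, 76.5 and 45.6 RPKM in WT, and 0 of 7 tested ones were highest in replicate 3 of both genotypes. The 2 embryo-surrounding region IDs, both untested, had their highest sum in replicate 2, with 1.87, 9.75 and 1.32 RPKM in o2 and 0.677, 13.8 and 0.571 RPKM in WT. Of the 4 embryo IDs, the globulin gene glb3 (GRMZM2G410134) gave most of the summed 370, 469 and 919 RPKM in o2 and 441, 317 and 676 RPKM in WT, while the oil-body gene ole1 had 1.89 RPKM in o2 replicate 3 and 43.0 RPKM in WT replicate 3, below the highest library of its genotype in both, and 1 of 3 tested embryo IDs was highest in replicate 3 of both genotypes. The 3 IDs of green maternal tissue summed to between 3.80 and 5.46 RPKM in every library. No marker ID was at 0 in all 6 libraries. In bulk tissue, fewer cells of a type and less RNA per cell cannot be told apart. The part of these marker differences in the member levels was not tested.

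**Figure D1:**
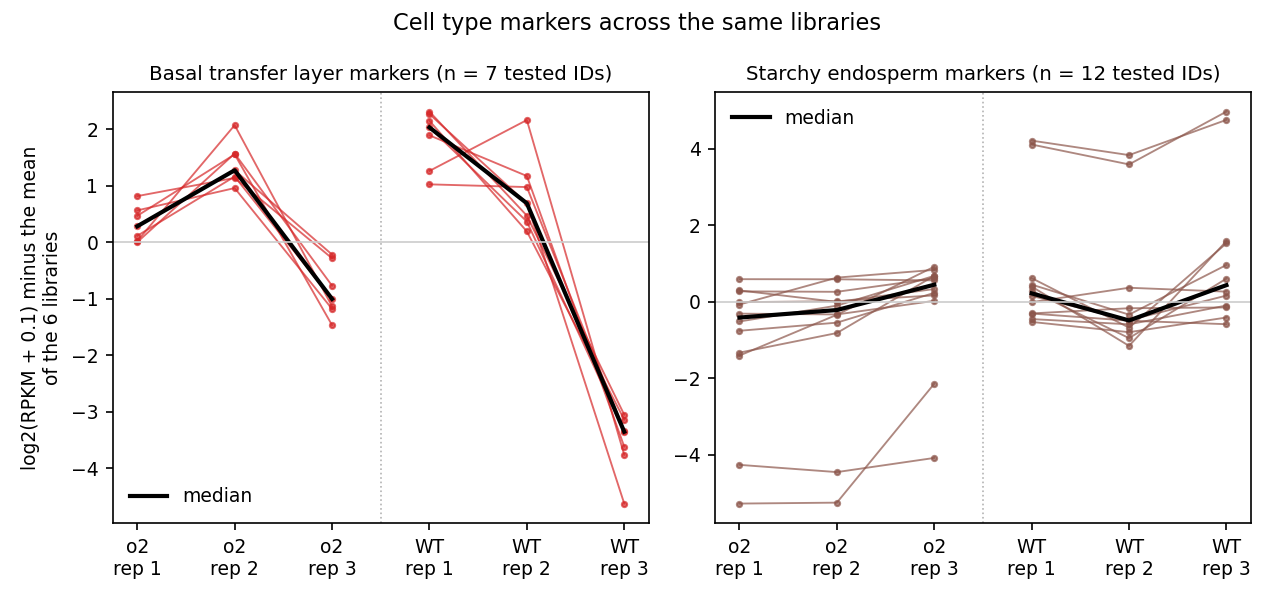
Level of each tested basal transfer layer marker (7 IDs, left) and starchy endosperm marker (12 IDs, right) in the 6 RNA libraries, as log2(RPKM + 0.1) minus the mean of that ID over the libraries. Coloured lines join the libraries of an ID within a genotype and have no order in time, and black lines are medians; all 7 markers on the left are lowest in replicate 3 of both genotypes.

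Most of the abundant members shared a pattern across the 6 libraries. The member with the highest mean, GRMZM2G403529, had 55.1, 103 and 214 RPKM in o2 replicates 1 to 3 and 40.6, 38.3 and 92.8 RPKM in WT replicates 1 to 3. In o2 all 3 libraries differed, with replicate 2 in the middle, while in WT replicates 1 and 2 were close, and the genotypes overlapped. In 28 members, that ID included, the profile on the log2(RPKM + 0.1) scale stayed within 0.25 of this one in every library, once the mean offset was removed. Among 23414 IDs with more than 0.3 RPKM in every library, 28 were so close and all were members. GRMZM2G403529 is itself a member, with ratios of 2.08 in o2 and 2.29 in WT, so closeness to it favours membership. At a limit of 0.3 the 30 IDs within it were 29 members and 1 ID that averaged 1.22 RPKM. At 0.4, 6 of 35 IDs were not members, and at 0.5, 18 of 49 were not, with averages of up to 53.3 RPKM. The limit was set after the values were seen, so the group is a description.

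The levels of these 28 IDs spanned a wide range although their pattern did not. In replicate 3 they ran from 6.36 to 214 RPKM in o2 (median 65.0) and from 2.73 to 92.8 RPKM in WT (median 28.1). GRMZM2G175385 had 51.6, 97.0 and 203 RPKM in the o2 libraries and 38.7, 35.2 and 87.6 RPKM in the WT libraries, and GRMZM2G047650, the least abundant, had 1.40, 3.07 and 6.36 RPKM in o2 and 1.07, 1.02 and 2.73 RPKM in WT. Both had the order of libraries seen for GRMZM2G403529. Of the 10 members with the highest mean, 8 had this profile: GRMZM2G403529, GRMZM2G175385, GRMZM2G307806, GRMZM2G160074, GRMZM2G175381, GRMZM2G300558, GRMZM2G099198 and GRMZM2G055986, which ran from 85.2 to 214 RPKM in o2 replicate 3 and from 35.7 to 92.8 RPKM in WT replicate 3. The other 2 were chiB and GRMZM2G499709, an ID with 45.8, 56.1 and 101 RPKM in o2 and 19.5, 18.7 and 43.4 RPKM in WT. In o2, replicate 2 was 1.64 to 2.20 times replicate 1 in all 28 (median 1.85). In WT, replicate 2 was 0.831 to 1.01 times replicate 1 (median 0.922). The choice by profile holds these ratios, and the difference between genotypes, near those of GRMZM2G403529. The 28 IDs gave 65.4%, 75.2% and 73.4% of the RPKM summed over members in o2 replicates 1 to 3, and 59.4%, 68.1% and 60.1% in WT replicates 1 to 3.

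The IDs of the shared pattern also stood apart in their annotation. None of the 28 was paired with a gene of the RefSeq table of Zm-B73-REFERENCE-NAM-5.0, whereas 25 of the other 53 members (47.2%) and 12658 of all 28580 IDs (44.3%) were. IDs that overlap or hold near-identical sequence can share reads, so the 28 values may not be separate measurements, and their sequences were not used here.

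**Figure D2:**
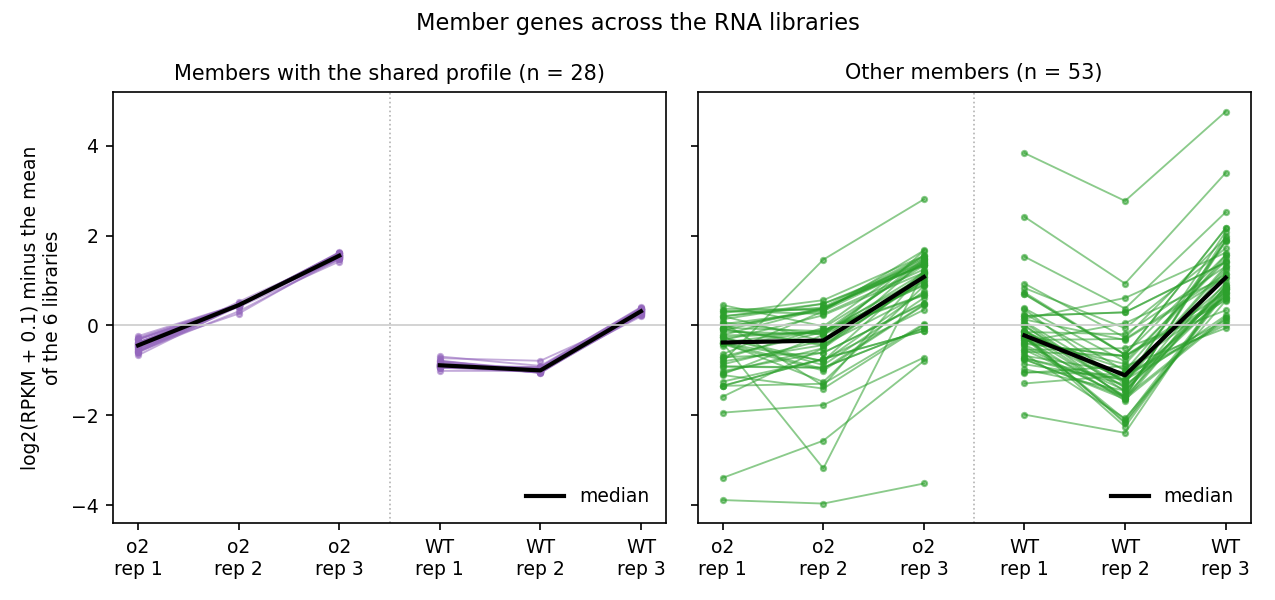
Level of every member in the 6 RNA libraries, as log2(RPKM + 0.1) minus the mean of that ID over the libraries, for the 28 members with the shared profile (left) and the other 53 (right). Lines join the libraries of an ID within a genotype and have no order in time, and black lines are medians; the 28 lines on the left lie nearly on each other, while those on the right spread more widely.

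Some of the other members ran in parallel in pairs. GRMZM2G401026 was 0.832 to 0.838 times GRMZM2G401029 in every library, and GRMZM2G039477 was 0.983 to 1.003 times GRMZM5G892452. GRMZM2G142927 was 1.01 to 1.08 times GRMZM2G383817, and GRMZM2G354801 was 1.04 to 1.11 times GRMZM2G054252. The level of GRMZM2G013993 was 1.49 to 1.61 times that of pck2. Such members may also count the same reads, so the 81 IDs may stand for fewer separate genes.

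Among members with a gene name, the 2 defence genes had unlike values across the genotypes. The rip1 gene (GRMZM2G063536) had 0.0269, 0.0202 and 0.0637 RPKM in o2 replicates 1 to 3 and 26.6, 12.6 and 50.4 RPKM in WT replicates 1 to 3. Replicate 3 was highest in both genotypes, at levels in o2 that were near 0, and the genotypes did not overlap. The chitinase gene chiB (GRMZM2G005633), whose product cuts the chitin of fungal cell walls, had 20.9, 30.5 and 89.2 RPKM in o2 and 29.0, 17.2 and 52.5 RPKM in WT. Its highest library was o2 replicate 3, its lowest WT replicate 2, and the genotypes overlapped. In the list of defence genes, 20 IDs were measured and 13 tested, and of the 11 tested IDs that were no members, 3 were highest in replicate 3 of both genotypes. The tps names in that list are shared by unrelated enzyme families, so its genes are not all known to act in defence.

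The genes of glyoxylate and sugar formation were members at different levels. The icl1 gene (GRMZM2G056369) encodes isocitrate lyase, an enzyme of the glyoxylate cycle, by which plants turn the carbon of stored lipid into sugar precursors. It had 0.502, 1.17 and 3.70 RPKM in o2 and 2.24, 0.935 and 4.78 RPKM in WT. The pck2 gene (GRMZM5G870932), named for phosphoenolpyruvate carboxykinase, which makes phosphoenolpyruvate from oxaloacetate, had 18.4, 18.2 and 40.5 RPKM in o2 and 8.43, 4.49 and 15.9 RPKM in WT. All 3 o2 libraries lay above all 3 WT libraries for pck2, while icl1 overlapped. A list of 7 genes for these pathways was drawn up after the data were seen, and its other 5 genes were no members and did not behave alike. The malate synthase gene mas1 (GRMZM2G102183), which acts next to isocitrate lyase in the cycle, had 1.81, 2.18 and 1.22 RPKM in o2 and 4.23, 1.63 and 7.82 RPKM in WT, so that replicate 3 was the lowest library in o2 and the highest in WT. Of these 5, 0 were highest and 3 were lowest in replicate 3 of both genotypes.

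The remaining named members were low. A gene of the TIFY family (GRMZM5G838098), which includes repressors of jasmonate signalling, had 1.22, 0.783 and 2.29 RPKM in o2 and 1.79, 1.28 and 3.54 RPKM in WT. The gene listed as m25 (GRMZM2G018589) had 0.997, 1.48 and 6.22 RPKM in o2 and 1.91, 0.546 and 4.34 RPKM in WT. For both genes the genotypes overlapped.

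**Figure D3:**
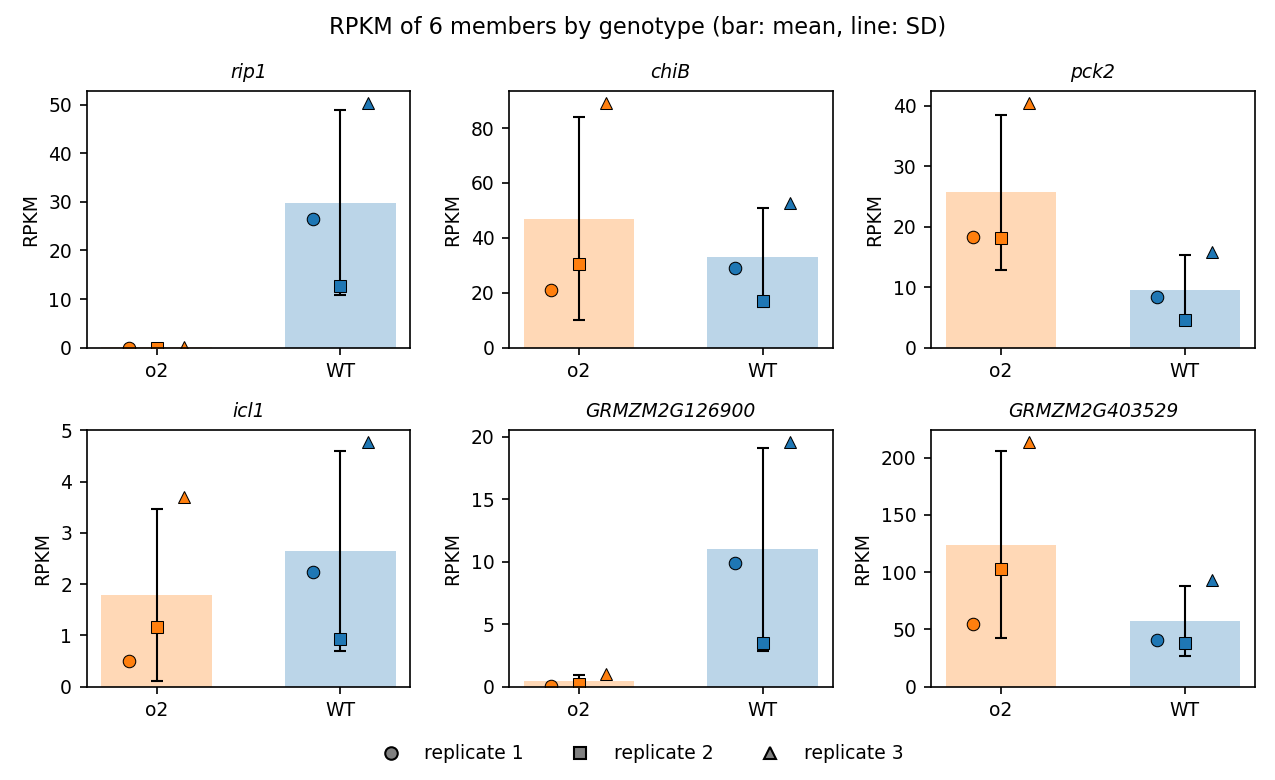
RPKM of 6 members in the o2 and WT libraries, with bars for the mean, lines for the SD (n = 3) and a symbol for each replicate. Replicate 3 (triangles) is the highest symbol of its genotype in every panel by the rule; rip1 and GRMZM2G126900 are near 0 in o2, and pck2 is higher in every o2 library than in any WT library.

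The members with the largest smaller ratio over both genotypes were mostly unnamed. GRMZM5G890373 led with 2.76, from 11.5, 8.74 and 35.2 RPKM in o2 and 13.8, 6.44 and 38.0 RPKM in WT, so that o2 was 0.837, 1.36 and 0.925 times WT by replicate number. GRMZM2G330871 had 0.565, 3.11 and 8.03 RPKM in o2 and 0.194, 0.122 and 2.08 RPKM in WT. Its replicate 3 was 2.58 times the higher of the other libraries in o2 and 10.7 times in WT, the highest WT ratio of any member. GRMZM2G063733 had 2.95, 4.34 and 17.1 RPKM in o2 and 6.59, 2.53 and 15.2 RPKM in WT, with ratios of 3.94 and 2.31. GRMZM2G554489, GRMZM2G355572, GRMZM2G074017, AC190822.2_FG003, GRMZM2G457003 and GRMZM2G120606 followed with smaller ratios of 2.28 to 2.53, and m25 was at 2.28 as well.

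The rule did not fix the order of replicates 1 and 2, and most members shared an order there too. In the 28 IDs of the shared profile the choice by profile holds that order, and they may share reads. They therefore do not count as separate cases, and the members outside the shared profile are given beside the totals. Some of those outside it also ran in parallel and may share reads, so they are not all separate cases either. Replicate 2 was lower than replicate 1 in WT for 71 of 81 members (87.7%), against 48.4% of tested genes, and higher in 8 of the 53 members outside the shared profile. In 28 of the 53 members outside the shared profile WT replicate 2 was less than 0.5 times replicate 1, which held for 2.91% of tested genes. The 81 and the 53 include 8 low members that were not tested, and the shares of tested genes leave such IDs out. The sets compared are therefore not alike. In o2, replicate 2 was above replicate 1 in 60 of 81 members (74.1%), against 48.1% of tested genes, and in 32 of the 53 outside the shared profile. The WT order, highest in replicate 3 and lowest in replicate 2, was also that of the RPKM summed over all IDs and of the starchy endosperm marker sum. In o2 the RPKM summed over all IDs was lower in replicate 2 (207265) than in replicate 1 (207907), unlike most members. The starchy endosperm marker sum in o2 was higher in replicate 2 (12312 RPKM) than in replicate 1 (10042 RPKM). The part of those sums in the member levels was not tested.

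The genotype comparison asked which members differed between o2 and WT. The rule did not use this contrast directly, but it set a lowest level in WT replicate 3 and a highest WT mean, with no such limits on o2. For this, 73 of the 81 members passed a filter of at least 1 RPKM in 3 of the 6 libraries, and 8 did not: GRMZM2G424599, GRMZM2G123394, GRMZM2G043943, GRMZM2G171581, GRMZM2G355572, GRMZM2G037015, GRMZM5G892452 and GRMZM2G039477, all at 3.31 RPKM or less in every library. The limma fit over all 18687 tested genes called 2 of the 73 at a Benjamini-Hochberg adjusted p under 0.05, both lower in o2, and 0 higher. Before adjustment 13 members had a p under 0.05, with a negative fold change in 6 and a positive one in 7. These were 17.8% of tested members, against 19.2% of all tested genes. Over all tested genes, 3.56% were called, 2.07% lower and 1.49% higher in o2, against 2.74% of tested members, a share near that of all genes. With 1 library left out, the calls among all genes numbered 98 to 777.

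The called members were rip1 and GRMZM2G126900. The mean of rip1 was 0.0369 ± 0.0235 RPKM in o2 and 29.9 ± 19.1 RPKM in WT (SD, n = 3 each), a log2 fold change on the log2(RPKM + 0.1) scale of -7.57 ± 0.47 (SE, limma adjusted p = 0.000777). Its o2 levels lay below the pseudocount, which therefore sets the size of the fold change: it was -4.69 with a pseudocount of 1 RPKM and -9.21 with 0.01 RPKM. GRMZM2G126900 had 0.0793, 0.218 and 0.988 RPKM in the o2 libraries and 9.92, 3.48 and 19.6 RPKM in the WT libraries, which do not overlap. Its log2 fold change was -4.49 ± 0.82 (SE, n = 3 each, limma adjusted p = 0.0395), or -2.86 with 1 RPKM and -5.01 with 0.01 RPKM. Both reached 1 RPKM in WT libraries alone, where the rule asks for a level that it does not ask of o2. GRMZM2G126900 was not called without WT replicate 1 (adjusted p = 0.125), WT replicate 3 (0.0785), o2 replicate 1 (0.103) or o2 replicate 2 (0.149), nor with robust variance moderation (0.0502), and 1 member was called in each of these fits, whereas rip1 was called in all 6 fits without a library (adjusted p up to 0.0122). GRMZM2G171581, below the filter, had 0.0220, 0.0372 and 0.185 RPKM in o2 and 1.25, 0.507 and 2.58 RPKM in WT. Limma called it only where no filter on low values was used (log2 fold change -2.95, adjusted p = 0.0443). It too reached 1 RPKM in WT libraries alone, where the rule sets a level, so the choice favours a lower value in o2. Its o2 replicates 1 and 2 lay below the pseudocount.

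Without replicate 3 of both genotypes, which the rule had made high, limma called 5 members among the same 73. These were rip1, GRMZM2G126900, GRMZM2G401026 and GRMZM2G401029, lower in o2, and AC205471.4_FG007, higher. GRMZM2G401029 had 1.47, 1.45 and 2.75 RPKM in o2 and 3.34, 3.53 and 7.78 RPKM in WT, so the o2 values lay below the WT values, while the fit to all libraries gave -1.28 ± 0.39 (SE, n = 3 each, limma adjusted p = 0.140). Its parallel ID GRMZM2G401026 may not be a separate measurement. AC205471.4_FG007 had 19.4, 23.7 and 47.0 RPKM in o2 and 6.49, 7.37 and 16.2 RPKM in WT, with a log2 fold change of 1.59 ± 0.45 (SE, n = 3 each, limma adjusted p = 0.120). Over all genes that fit called 299 (1.6%).

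Most members that limma did not call had higher mean log2 values in o2. Of the 73 tested members, 57 had a log2 fold change above 0 (78.1%), against 56.6% of all tested genes. Of these 57, 28 were the IDs of the shared profile, which the choice by profile holds alike and which may share reads. Outside the shared profile, 29 of 45 (64.4%) were above 0, nearer the share of all tested genes. The median of the 73 was 0.98, against 0.05 over all tested genes. The 28 IDs of the shared profile lay between 0.80 and 1.15 (median 1.03), with adjusted p from 0.294 to 0.504 in limma. With those 28 counted as 1 gene the median of members was 0.37, and without o2 replicate 3 the median over all 73 was 0.44. For GRMZM2G403529 the mean was 124 ± 81.5 RPKM in o2 and 57.2 ± 30.8 RPKM in WT (SD, n = 3 each), and its log2 fold change was 1.02 ± 0.56 (SE, limma adjusted p = 0.392). Matched by replicate number, its o2 level was 1.36, 2.68 and 2.30 times the WT level.

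Outside the shared profile the tested members ran both ways. Of 45, 29 were above 0 and 16 below, with a median of 0.36. The highest, GRMZM2G330871, had a log2 fold change of 2.31 ± 1.15 (SE, n = 3 each, limma adjusted p = 0.344). For pck2 it was 1.48 ± 0.51 (adjusted p = 0.182), with a mean of 25.7 ± 12.8 RPKM in o2 and 9.59 ± 5.77 RPKM in WT (SD, n = 3 each). The values for chiB, m25, the TIFY gene and icl1 were 0.37, 0.31, -0.59 and -0.68 in limma (adjusted p 0.802, 0.892, 0.555 and 0.706). GRMZM5G848523 had 5.99, 4.84 and 13.1 RPKM in o2 and 23.2, 12.4 and 43.0 RPKM in WT, a log2 fold change of -1.66 ± 0.53 (SE, n = 3 each, limma adjusted p = 0.158), and its highest o2 value lay above its lowest WT value.

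The o2 and WT values did not overlap for 10 of the 73 tested members (13.7%), 4 lower and 6 higher in o2, whereas 26.1% of all tested genes had groups that did not overlap. The rule widens the spread within each genotype and so makes overlap more frequent among members. The median SE of the log2 fold change was 0.58 in members and 0.19 over all tested genes, and a p above the threshold does not show that a member is alike in both genotypes. The 6 higher IDs were AC205471.4_FG007, pck2, GRMZM2G013993, GRMZM2G107103, GRMZM2G499709 and GRMZM2G001696. GRMZM2G107103 had 21.5, 27.3 and 51.8 RPKM in o2 and 9.35, 10.4 and 18.7 RPKM in WT, a log2 fold change of 1.35 ± 0.40 (SE, n = 3 each, limma adjusted p = 0.132). GRMZM2G001696 had 2.75, 2.63 and 5.33 RPKM in o2 and 1.28, 0.819 and 2.57 RPKM in WT, and its lowest o2 value was slightly above its highest WT value.

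**Figure D4:**
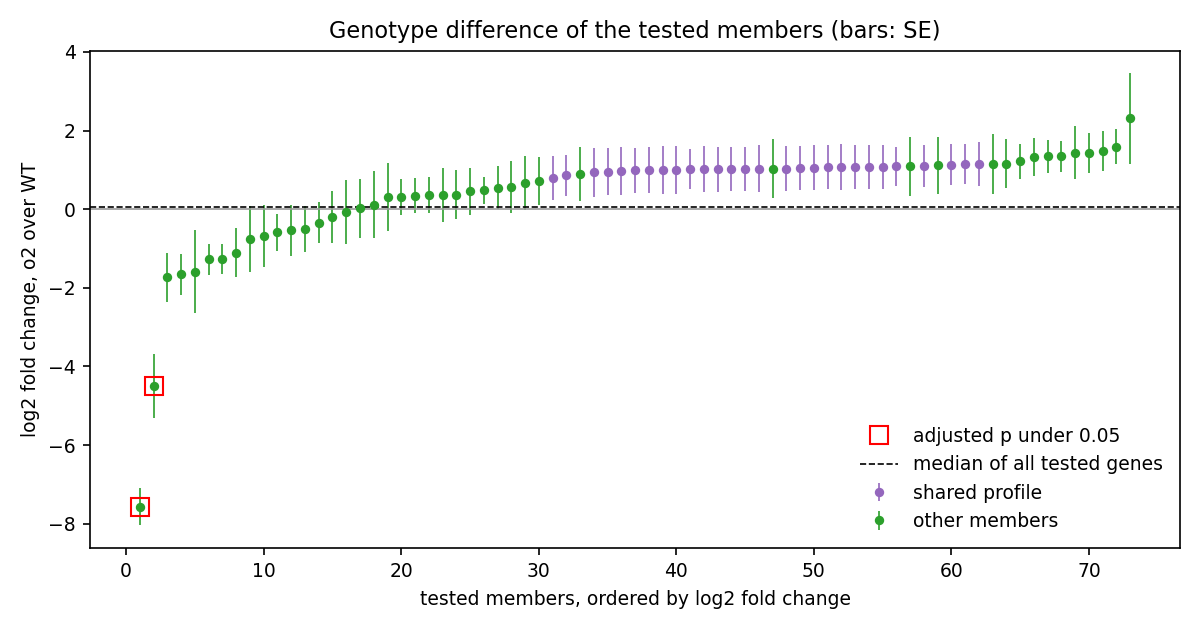
Log2 fold change of o2 over WT for the 73 tested members on the log2(RPKM + 0.1) scale, ordered by size, with SE bars from limma. The 2 called members, rip1 and GRMZM2G126900, lie at the lower left, and the 28 members with the shared profile form a flat run near 1, above the median of all tested genes at 0.05.

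Few members belonged to the gene lists. Of 16 lists of cell types and pathways, the defence list held 2 members and the other 15 held 0. In the starchy endosperm list the rule's exclusions set this count, since 3 of its 12 IDs (gz16, gz50 and the zein gene bz15) met both ratios and were left out by name or by their WT mean. These 15 covered the 6 cell types above, heat shock, water deficit and abscisic acid, the circadian clock, low oxygen and glycolysis, cell division, ribosomal proteins, lipids, transcription factors and transporters. They held 308 of the 28580 IDs. IDs entered a list by gene name, which 6 of the 81 members and 1792 of all IDs (6.27%) had. A count of 0 members therefore does not show that a cell type or pathway is absent from the members. Of 13 tested heat shock genes, 1 was highest and 2 were lowest in replicate 3 of both genotypes, of 13 tested water deficit genes 5 and 2, and of 4 clock genes 0 and 0. Of 14 tested low oxygen and glycolysis genes, 1 was highest and 7 were lowest, and of 26 tested cell division and chromatin genes 1 and 9. Of 32 ribosomal protein genes, 1 and 1 were highest and lowest, of 9 lipid genes 0 and 0, of 81 transcription factor genes 14 and 12, and of 5 transporter genes 2 and 1. In the defence list limma called 2 of 13 genes lower in o2 and 0 higher, with a median log2 fold change of -0.18.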

How the data were processed

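Polyadenylated RNA of 3 o2 and 3 WT endosperm samples was analysed; the ChIP libraries and peak list were not used, since they could not be tied to these genes. The authors deposited RPKM per gene ID, and read counts per library by mapping class. Per the submitters' processing notes, which give no roles, the build was B73 RefGen_v3 and the tools included TopHat2 2.0.9 and edgeR 3.2.4. No source used here gives the scaling of RPKM, the use of strand or the counting of multiply mapped reads, so the reads behind each value are unknown.

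Members were found by the rule. Genotypes were compared on log2(RPKM + 0.1), where folds of low genes are understated, for IDs with 1 RPKM or more in at least 3 of 6 libraries, by limma 3.58.1 in R 4.3.3 (eBayes with trend, genotype as the only term), with Benjamini-Hochberg adjustment over all tested genes and calls at 0.05. Every adjusted p is from this fit or a named rerun. The step was tested on simulated data with independent noise for each gene and library. Those data held no shared replicate 3 difference and no parallel IDs, so the run does not show how the fit treats such members. Alternatives were other pseudocounts, filters, scalings and variance models, a replicate block and fits without each library. IDs were paired with names through the RefSeq table of Zm-B73-REFERENCE-NAM-5.0. In the embryo-surrounding region list, ae1 was removed, as this symbol is a starch branching enzyme there. Genes were named by rule: members with a name, the 10 of highest mean, the 10 of largest smaller ratio, members called with or without a replicate block, and the 3 IDs on either side of the limit; any others were chosen after their values were seen. The members and lists, and the shared profile group, were chosen with earlier results of these data known.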

Additional observations from a re-analysis of the deposited data

How the results depend on the processing

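The rule gave 81 members, 185 with a ratio of 1.5, 3 with a ratio of 2.5 and 39 with at least 10 RPKM in WT replicate 3. Against 666 genes and 2 members called, limma called 1051 genes and 3 members (GRMZM2G171581 added) with no filter on low values, 395 genes and 0 members with 1 RPKM required in all 6 libraries, and 1 member with robust eBayes. The strict filter tested 47 members, 10 of them under an unadjusted p of 0.05, and removed both called members from the test. Without replicate 3 of both genotypes 299 genes and 5 members were called. With 1 library left out, limma called 98 to 777 genes (98 without o2 replicate 2, 777 without WT replicate 2) and 1 to 2 members, and the median log2 fold change of members was 0.44 to 1.42. The median was 0.37 with the shared profile counted as 1 gene (an alternative added after the data were seen).

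With replicate number as a block, limma called 340 of 18687 tested genes (1.82%) and 9 of 73 tested members, a larger share. Of these members, 5 were lower in o2 (rip1, GRMZM2G126900, GRMZM5G848523, GRMZM2G401029 and GRMZM2G401026) and 4 higher (GRMZM2G107103, AC205471.4_FG007, GRMZM2G380088 and GRMZM2G001696). The block takes out the replicate 3 difference by which members were chosen, so it favours them. The replicate numbers share no stated source: deviations from the genotype means correlated across genes at -0.02, 0.06 and 0.32 for replicates 1, 2 and 3, and o2 replicate 1 correlated best with WT replicate 2 (0.23) and o2 replicate 2 with WT replicate 1 (0.17).

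Of 533 comparisons of named genes with an alternative, 503 kept direction and side of the threshold, 10 passed it newly, 5 no longer passed it and 15 changed sign, all of these 15 in members that were not called. With quantile normalization GRMZM5G890373 was at -0.10. With 1 library left out, the log2 fold change ran from -0.23 to 0.81 for chiB (GRMZM2G005633), -0.44 to 0.96 for m25 (GRMZM2G018589), -0.58 to 0.69 for GRMZM5G890373, -1.60 to 0.10 for GRMZM2G074017, -0.59 to 0.76 for AC190822.2_FG003, -0.81 to 0.55 for GRMZM2G063733 and -1.18 to 0.10 for GRMZM2G457003. The causes were not tested. The files used hold no counts per gene, so the precision that depth allows is unknown.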
